A study of Mus musculus with 14 samples.

Results

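The genes described here are 10 mouse genes of the ATF4 amino acid stress response: Atf4 itself, Ddit3, Trib3, Chac1, Sesn2, Asns, Phgdh, Psat1, Shmt2 and Slc7a11. They were named as a list, without a threshold on their values but with earlier results of these data known. All 10 were found among the 52550 genes of the count table. RNA had been sequenced from 14 mouse bone marrow samples in 3 groups. The first group was 4 preparations of hematopoietic stem and progenitor cells (HSPCs), enriched from the marrow of wild-type (WT) C57BL/6 mice, and the second was 4 preparations enriched in the same way from Mir139KO mice, which lack the microRNA gene Mir139. Donor mice were 8 to 20 weeks old. The third group was 6 cultures of WT HSPCs into which a retrovirus had brought the MLL-AF9 leukemia fusion gene. The neo vector, which gives neomycin resistance, was used in MLL-AF9 replicates 1 to 3, and the puro vector, which gives puromycin resistance, in replicates 4 to 6. The MLL-AF9 cells had been grown in cytokines, selected with a drug and replated in semi-solid medium, and no HSPCs cultured without MLL-AF9 were among the samples, so transformation and culture cannot be told apart in any comparison with HSPCs. The labels do not say which samples came from separate mice or separate transductions, so p-values measure the spread between these samples.

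ATF4 is the transcription factor at the end of the integrated stress response. Kinases that sense missing amino acids (GCN2), unfolded protein in the endoplasmic reticulum (PERK), double-stranded RNA (PKR) or missing heme (HRI) phosphorylate the initiation factor eIF2, general translation slows, and the Atf4 mRNA is translated more efficiently. ATF4 then pairs with C/EBP and other bZIP proteins and switches on genes for amino acid synthesis, amino acid import, tRNA charging and, under lasting stress, cell death. Because much of its control is translational, the level of the Atf4 mRNA is only part of the response, and RNA counts carry no measure of ATF4 protein.

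ATF4 and C/EBP proteins bind composite elements whose core reads TGATGNAA, where N is any base. RefSeq promoters on build GRCm38.p6, which run from 250 bases before to 50 bases after a transcript start, were searched for this core on both strands. It was present in 4 of the 10 genes, Chac1, Trib3, Slc7a11 and Asns, against 4.51% of the 27025 genes in the table. Slc7a11 held it in both directions, and 0.07% of all 32851 promoters held 2 or more. The match in Asns began 23 bases before the transcript start, those in Slc7a11 66 and 47 bases before, that in Chac1 193 bases before, and that in Trib3 15 bases past the start. These stretches are printed 5′ to 3′ on the strand of the gene, with the core in capitals, because Trib3, Chac1 and Slc7a11 were the genes with the largest differences between groups and Asns is the best known bearer of the element. They cover chr2:119351019-119351086 for Chac1, chr2:152344028-152344057 for Trib3, chr3:50443623-50443709 for Slc7a11 and chr6:7693210-7693262 for Asns, the last 3 on the minus strand.
Chac1: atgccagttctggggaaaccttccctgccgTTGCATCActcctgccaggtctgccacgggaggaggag
Trib3: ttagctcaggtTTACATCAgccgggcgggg
Slc7a11: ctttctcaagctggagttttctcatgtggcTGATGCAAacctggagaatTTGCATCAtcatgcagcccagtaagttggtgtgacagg
Asns: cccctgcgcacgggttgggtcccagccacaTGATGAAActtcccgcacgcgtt
A match is a description of these letters and not a measured binding site. The starts used here are those of RefSeq. By the GENCODE bounds printed for each gene below, the Asns match lies inside the gene and the Trib3 match before it. The other 6 genes had no such letters in this window, which says nothing of binding elsewhere.

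Total counts ran from 35016668 to 45877994 per library, so that 3 counts were worth 0.0654 to 0.0857 CPM by total counts alone. On the scale of the levels given below, a count was worth more in some HSPC libraries than in MLL-AF9 cells. For Chac1, 150 counts were 6.46 CPM in Mir139KO replicate 1, and 146 counts were 2.87 CPM in MLL-AF9 replicate 2. Levels are given as CPM, normalized counts on one TMM scale, which corrects for a few genes taking a large part of a library. That mattered because the noncoding RNA gene Gm26917 took 16.99 to 35.4% of the counts in HSPCs and 7.55 to 10.4% in MLL-AF9 cells. The share was under 25% in 4 HSPC libraries (WT replicates 1 and 2, Mir139KO replicates 2 and 3) and over it in the other 4, which split both genotypes evenly. MLL-AF9 replicates 4 and 6 were nearly alike, with a correlation of log2 CPM of 0.995 where the next closest pair of cultures had 0.981. Their counts still differed by more than counting noise, with a median chi-square of 1.13 per gene where noise alone gives 0.455 and the other pairs gave 8.1 to 44.7. The labels name them as separate samples and do not say whether they came from the same culture, which these counts do not tell, so values with the 2 summed are given where they alter a call. Mir139 and its host gene Pde2a were listed at 0 to 2 counts in every library, so the knockout could not be checked. Some widely expressed genes were listed at 0 in the same table, so such low counts are not read as absent expression. Hoxa9, Hoxa10 and Meis1, which MLL fusions switch on, were 5.06, 6.72 and 4.55 higher on the log2 scale in MLL-AF9 cells than in WT HSPCs, while the progenitor genes Kit, Cd34, Flt3 and Gata2 were lower.

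**Figure D1:**
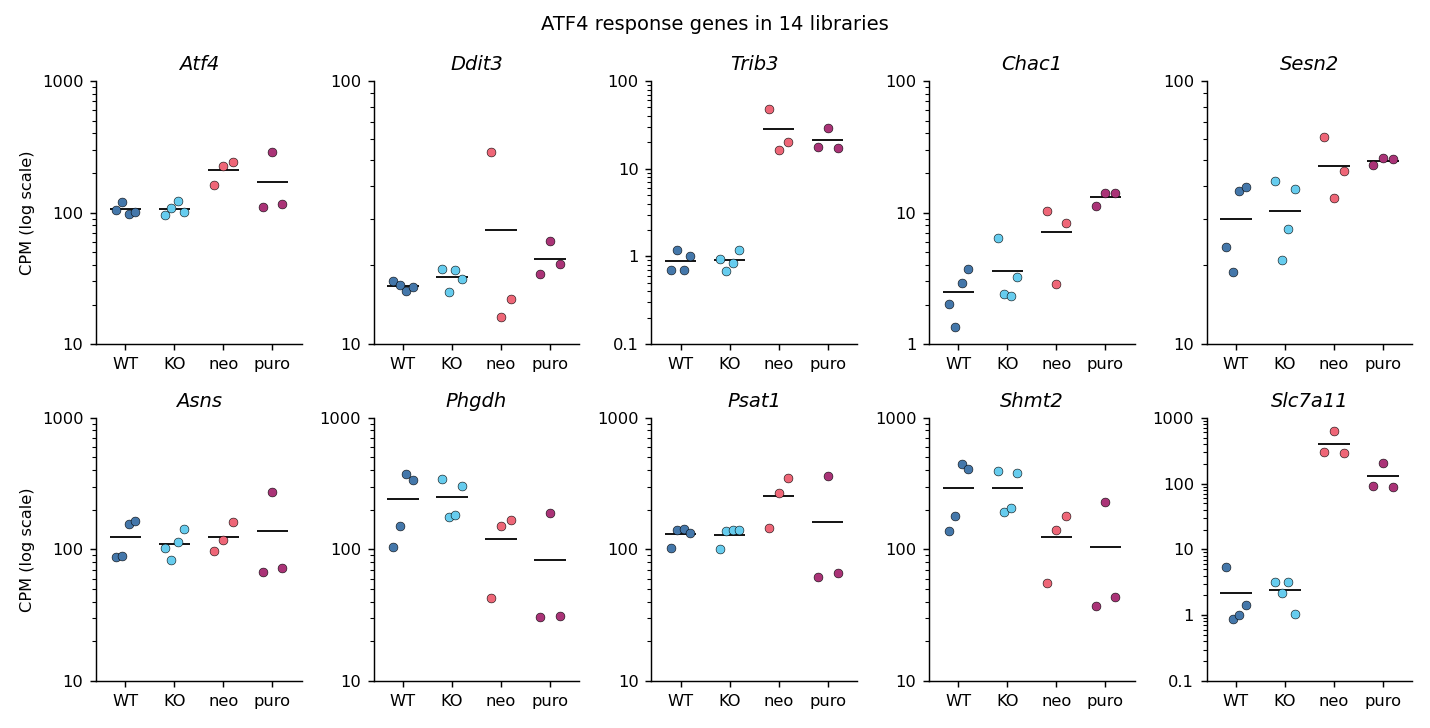
Level of each of the 10 genes in each library, in CPM on a log axis, for 4 WT HSPC, 4 Mir139KO HSPC (KO), 3 MLL-AF9 neo and 3 MLL-AF9 puro libraries; each point is a library and each bar the group mean. Trib3 and Slc7a11 lay higher in all 6 MLL-AF9 cultures than in all 8 HSPC libraries, whereas the points of the other 8 genes overlapped.

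Levels differed widely between the genes. Per kilobase of exon, which allows genes of different length to be compared, the serine pathway enzymes led in WT HSPCs, Phgdh at 96.9 ± 54.1 and Shmt2 at 94.0 ± 50.6 CPM per kb (SD, n = 4). Asns (45.3 ± 15.4), Atf4 (45.0 ± 4.45) and Psat1 (30.6 ± 4.43 CPM per kb) followed. Phgdh and Shmt2 lay above Asns in each WT library. The order of Phgdh and Shmt2 with each other, and that of Asns and Atf4, changed between the libraries. Ddit3 (9.73 ± 0.358) and Sesn2 (8.63 ± 3.01 CPM per kb) were lower and within a spread of each other. Chac1 (1.53 ± 0.630), Trib3 (0.422 ± 0.110) and Slc7a11 (0.155 ± 0.153 CPM per kb) came last, with Trib3 and Slc7a11 barely expressed. In MLL-AF9 cells Atf4 stood first at 81.0 ± 31.0 CPM per kb (SD, n = 6), ahead of Psat1, Asns, Phgdh and Shmt2 at 48.9, 48.0, 40.9 and 36.7 CPM per kb, which lay within a spread of each other. Slc7a11 moved from last place to sixth at 19.1 ± 14.2 CPM per kb, level with Ddit3, Sesn2 and Trib3 (14.1, 14.02 and 11.6) within its spread, and Chac1 was last at 6.20 ± 2.57 CPM per kb. All 10 genes passed the filter on low counts in every comparison.

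MLL-AF9 cells were set against WT HSPCs to ask which of these genes differ after transformation. Of the 10 genes, 5 rose (Atf4, Trib3, Chac1, Sesn2 and Slc7a11), 1 fell (Shmt2), and Ddit3, Asns, Psat1 and Phgdh did not pass the test, an edgeR quasi-likelihood test at an adjusted p under 0.05 over all 17077 genes tested. So much of the transcriptome differed between these groups that 62.2% of all genes were called, 32.8% as higher and 29.4% as lower, and 6 of 10 called genes is no more than that background. Groups did not overlap for 2 of the 10 genes and for 50.5% of all genes. Large differences were common too, with 56.7% of all genes called at an absolute log2 difference of at least 1. Within this wide spread the signed differences of Slc7a11 and Trib3 ranked above 99.2% and 96.9% of all genes, whose signed median was 0.14. In bulk RNA fewer cells of a type and less RNA per cell cannot be told apart, which applies to each lower level that follows.

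Slc7a11 (ENSMUSG00000027737, chr3:49892526-50443614, minus strand of build GRCm38, as for the genes that follow) encodes the transport subunit of the cystine and glutamate exchanger xCT, which supplies cysteine for glutathione. In WT HSPCs it was at 5.34, 0.876, 1.00 and 1.41 CPM in replicates 1 to 4, and in Mir139KO HSPCs at 3.14, 2.19, 3.24 and 1.03 CPM. In the MLL-AF9 cultures it reached 298, 624 and 292 CPM with the neo vector and 90.7, 205 and 89.8 CPM with the puro vector. Every MLL-AF9 culture was thus far above every HSPC library, and WT replicate 1 was the highest of its group. The difference from WT was 6.91 on the log2 scale (SE 0.869, adjusted p = 5.75e-05), a 120-fold higher level. It was 7.91 without WT replicate 1. It was 5.46 after a correction for GC content, and Slc7a11 was called in all 29 alternative settings.

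Trib3 (ENSMUSG00000032715, chr2:152337422-152344032, minus strand) encodes a pseudokinase that ATF4 induces and that dampens ATF4 and AKT signaling. It stood at 0.704, 1.18, 0.701 and 1.00 CPM in WT HSPCs and at 0.947, 0.684, 0.852 and 1.19 CPM in Mir139KO HSPCs, levels that rest on 21 to 51 counts per library. The neo cultures had 48.3, 16.4 and 20.1 CPM and the puro cultures 17.6, 28.8 and 17.2 CPM. The groups did not overlap, and the lowest MLL-AF9 culture, at 16.4 CPM, was far above the highest HSPC library. The difference from WT was 4.77 (SE 0.453, adjusted p = 8.38e-06), a 27.3-fold higher level, and Trib3 was called in all 29 alternatives with log2 differences of 4.47 to 5.57.

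Chac1 (ENSMUSG00000027313, chr2:119351229-119354381, plus strand) encodes a glutathione-degrading enzyme that ATF4 and CHOP induce. Its levels were low in all groups, at 2.01, 1.36, 2.90 and 3.72 CPM in WT and 6.46, 2.39, 2.34 and 3.22 CPM in Mir139KO HSPCs. The MLL-AF9 cultures had 10.2, 2.87 and 8.38 CPM with neo and 11.2, 14.1 and 14.1 CPM with puro. Of the 6 cultures 5 lay above every HSPC library, and neo replicate 2 lay among them. The rise over WT was 2.01 on the log2 scale (SE 0.475, adjusted p = 3.07e-03), and it was called in all 29 alternatives at 1.51 to 2.89.

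Atf4 (ENSMUSG00000042406, chr15:80255184-80257541, plus strand) was itself nearly constant in HSPCs, at 106, 121, 97.0 and 101 CPM in WT and 96.6, 108, 122 and 101 CPM in Mir139KO. In MLL-AF9 cells it was at 161, 227 and 243 CPM with neo and at 110, 289 and 116 CPM with puro. Replicates 1, 2, 3 and 5 were above every HSPC library, and puro replicates 4 and 6 were inside the HSPC range. The difference from WT was 0.83 (SE 0.309, adjusted p = 0.0334). The puro cultures alone gave 0.69 (adjusted p = 0.153) and the neo cultures alone 1.00 (adjusted p = 0.0184). The call was kept in 15 of 29 alternatives and lost without any 1 of the 4 WT replicates or of MLL-AF9 replicates 2, 3 and 5, with differences of 0.69 to 0.96 over all libraries left out in turn.

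Sesn2 (ENSMUSG00000028893, chr4:132492032-132510501, minus strand), a stress-induced sestrin that restrains mTORC1 when leucine is scarce, was at 23.4, 18.8, 38.3 and 39.5 CPM in WT, at 41.6, 20.97, 27.3 and 39.0 CPM in Mir139KO, and at 61.3, 35.9, 45.6, 48.0, 50.9 and 50.5 CPM in MLL-AF9 replicates 1 to 6. The difference from WT, 0.69 (SE 0.278, adjusted p = 0.0469), barely passed the threshold and was called in 10 of 29 alternatives. It was lost without WT replicate 1 or 2 or without any 1 of MLL-AF9 replicates 1, 3, 4, 5 and 6 (0.48 to 0.82 over all libraries left out), and with replicates 4 and 6 summed (0.70, adjusted p = 0.0667). Taking only the WT libraries with a low Gm26917 share it was 1.14 (adjusted p = 0.00676), and only those with a high share 0.22 (adjusted p = 0.418).

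Ddit3 (ENSMUSG00000025408, chr10:127290774-127296288, plus strand), which encodes the bZIP factor CHOP that works with ATF4 in lasting stress, was the steadiest gene in WT HSPCs, at 17.4, 16.8, 15.9 and 16.5 CPM, and was at 19.4, 15.8, 19.2 and 17.7 CPM in Mir139KO. A single MLL-AF9 culture stood out, neo replicate 1 with 53.9 CPM, which also had the highest Trib3 and Sesn2. The other 5 cultures were at 12.7, 14.9, 18.4, 24.7 and 20.3 CPM and straddled the HSPC range. The difference from WT was 0.52 (95% confidence interval -0.32 to 1.37, adjusted p = 0.258) and was 0.12 without that culture. Of the 1713 exon bases of Ddit3, 186 are shared with other annotated genes, Mars among them, and the counting of such reads is not stated.

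The enzymes of serine and asparagine synthesis gave a mixed picture. Phgdh (ENSMUSG00000053398, chr3:98313170-98339990, minus strand), the first enzyme of serine synthesis from glucose carbon, was at 104, 149, 376 and 334 CPM in WT and 344, 177, 181 and 301 CPM in Mir139KO. It was at 42.6, 151 and 166 CPM in the neo cultures and at 30.4, 189 and 31.0 CPM in the puro cultures. Its difference from WT was -1.27 (SE 0.584, 95% confidence interval -2.53 to 0.00, adjusted p = 0.0757), just outside the threshold. Replicates 1, 4 and 6 were below every HSPC library and the other 3 were inside the HSPC range. Without replicate 5 it was called at -1.52, and against the high-share WT libraries alone at -1.94 (adjusted p = 0.0333). It was -0.39 against the low-share WT libraries (adjusted p = 0.676) and -0.19 after the GC correction (adjusted p = 0.795), and it was called in 4 of 29 alternatives.

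Shmt2 (ENSMUSG00000025403, chr10:127517123-127522444, minus strand), the mitochondrial enzyme that turns serine into glycine and a one-carbon unit, followed the same course. WT libraries had 137, 178, 448 and 406 CPM, Mir139KO libraries 392, 191, 208 and 382 CPM, and MLL-AF9 cultures 55.3, 140, 178, 37.0, 230 and 43.2 CPM in replicates 1 to 6. The same 3 cultures were below every HSPC library. Shmt2 fell by 1.38 on the log2 scale (SE 0.543, adjusted p = 0.0418). Against the low-share WT libraries alone it differed by -0.55 (adjusted p = 0.517) and against the high-share ones by -2.04 (adjusted p = 0.0182), and after the GC correction by -0.32 (adjusted p = 0.628). With MLL-AF9 replicates 4 and 6 summed it was -1.20 (adjusted p = 0.0677), and it was called in 15 of 29 alternatives. It was lost without WT replicate 3 or 4 or without any 1 of MLL-AF9 replicates 1, 2, 4 and 6, with differences of -1.69 to -1.12 over all libraries left out.

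Psat1 (ENSMUSG00000024640, chr19:15904678-15947337, minus strand), the second enzyme of serine synthesis, was even across HSPCs at 102, 140, 144 and 134 CPM in WT and 101, 137, 141 and 139.3 CPM in Mir139KO. It ranged from 61.6 to 358 CPM in MLL-AF9 cells, with 144, 270 and 348 CPM in the neo and 61.6, 358 and 65.8 CPM in the puro cultures. Cultures lay on both sides of the HSPC range. The difference from WT was 0.66 (95% confidence interval -0.41 to 1.72, adjusted p = 0.262), and 0.98 with the neo cultures alone (adjusted p = 0.0388).

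Asns (ENSMUSG00000029752, chr6:7675169-7693254, minus strand), asparagine synthetase, was at 86.8, 88.2, 156 and 165 CPM in WT, at 103, 82.9, 114 and 142 CPM in Mir139KO, and at 96.3, 118, 160, 66.8, 274 and 72.1 CPM in MLL-AF9 replicates 1 to 6. Apart from puro replicate 5 above and puro replicates 4 and 6 below, the cultures were inside the HSPC range. Its log2 difference from WT was 0.06 (95% confidence interval -0.81 to 0.94, adjusted p = 0.904), so a difference inside that interval was not detectable.

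**Figure D2:**
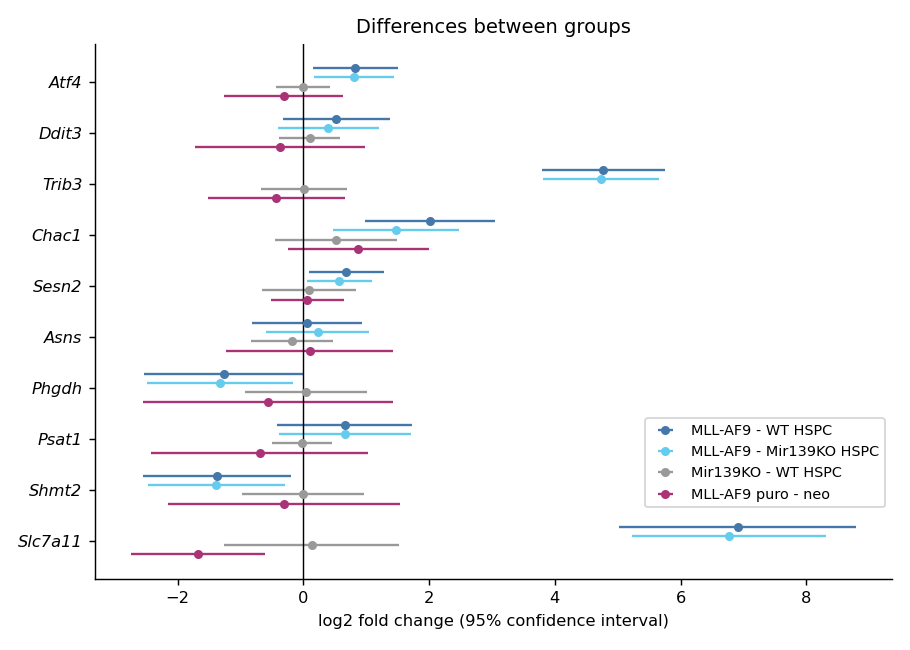
Log2 fold change of each gene with its 95% confidence interval from edgeR, for MLL-AF9 cells against WT and Mir139KO HSPCs, Mir139KO against WT HSPCs, and puro against neo cultures. Trib3 (4.77) and Slc7a11 (6.91) lie far to the right against either HSPC genotype, Shmt2 (-1.38) and Phgdh (-1.27) to the left, and the intervals of all 10 genes include 0 between the HSPC genotypes.

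Against Mir139KO HSPCs, 7 of the 10 genes were called in MLL-AF9 cells, where 69.3% of all genes were. This comparison shares its MLL-AF9 libraries with the one against WT, so it is not a second observation of those cells. Slc7a11 differed by 6.77 (SE 0.713, adjusted p = 7.80e-06), Trib3 by 4.73 (SE 0.424, adjusted p = 2.53e-06), Chac1 by 1.48 (adjusted p = 0.0125), Atf4 by 0.81 (adjusted p = 0.0255) and Sesn2 by 0.57 (adjusted p = 0.0492). Shmt2 fell by 1.39 (adjusted p = 0.0257) and Phgdh by 1.33 (adjusted p = 0.0412). Psat1 (0.66), Ddit3 (0.40) and Asns (0.23) did not pass the test. After the GC correction Shmt2 was at -0.31 and Phgdh at -0.26 (adjusted p = 0.713), and neither was called. Against the low-share Mir139KO libraries alone they were at -0.90 and -0.91 (adjusted p = 0.266 and 0.303). Chac1 was at 1.01 with the neo cultures only (adjusted p = 0.0792) and at 1.00 against the high-share libraries (adjusted p = 0.167). With MLL-AF9 replicates 4 and 6 summed, Phgdh (-1.13, adjusted p = 0.0565) and Sesn2 (0.59, adjusted p = 0.065) were not called. Without Mir139KO replicate 4 the count of called genes was 3, and it was 4 without replicate 1 or without replicate 2.

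With each library scaled by total counts alone, the median of all genes shifted by 0.551 on the log2 scale against WT and by 0.686 against Mir139KO, and the share of calls that were higher went from 52.7 to 68.3% and from 53.9 to 71.4%. Slc7a11, Trib3, Chac1, Atf4 and Sesn2 stayed called as higher than WT under that scaling. Shmt2 was then at -0.66 (adjusted p = 0.268) and Phgdh at -0.54 (adjusted p = 0.406) against WT, and neither was called against either genotype.

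The loss of Mir139 was not accompanied by a detectable difference in any of the 10 genes. None of the 10 passed the test between Mir139KO and WT HSPCs, as none of the 15056 genes tested did (0% called by edgeR, and none by DESeq2 or limma-voom). At an unadjusted p under 0.05 there were 0 of the 10 genes, against 0.571% of all genes. The largest difference was that of Chac1, 0.52 (95% confidence interval -0.46 to 1.49). The interval was narrowest for Atf4 (-0.43 to 0.43), Psat1 (-0.50 to 0.46) and Ddit3 (-0.39 to 0.59). It was wide for Slc7a11 (-1.26 to 1.53), Phgdh (-0.93 to 1.02) and Shmt2 (-0.98 to 0.96), so differences inside those intervals were not detectable by this test. The test did not model the Gm26917 share, whose classes differ in Phgdh and Shmt2, so its spread includes that split. With the share class as a covariate 0 genes were called, and 536 of 15056 had an unadjusted p under 0.05.

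The levels of some genes followed the split by Gm26917 share, which crosses both genotypes. Across the 8 HSPC libraries, Phgdh was at 104 to 181 CPM in the 4 low-share and 301 to 376 CPM in the 4 high-share libraries, a ratio of means of 2.22. Shmt2 was at 137 to 208 against 382 to 448 CPM (ratio 2.28), Sesn2 at 18.8 to 27.3 against 38.3 to 41.6 CPM (1.75), and Chac1 at 1.36 to 2.39 against 2.90 to 6.46 CPM (2.01). Atf4 went the other way, at 106 to 122 against 96.6 to 101 CPM (0.865). These 5 of the 10 genes separated the share classes without overlap, as did 65.2% of all genes tested in HSPCs. The transcripts of Phgdh, Shmt2, Sesn2 and Chac1 have a GC content of 57.2, 57.4, 58.7 and 57.4%, against 45.6, 47.7, 48.4 and 40.7% for Ddit3, Asns, Psat1 and Slc7a11, which overlapped. Trib3 (58.2%) also overlapped, and Atf4, which lay lower in the high-share class, is at 55.5%. The part of GC content and of the Gm26917 share in these levels was not tested.

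**Figure D3:**
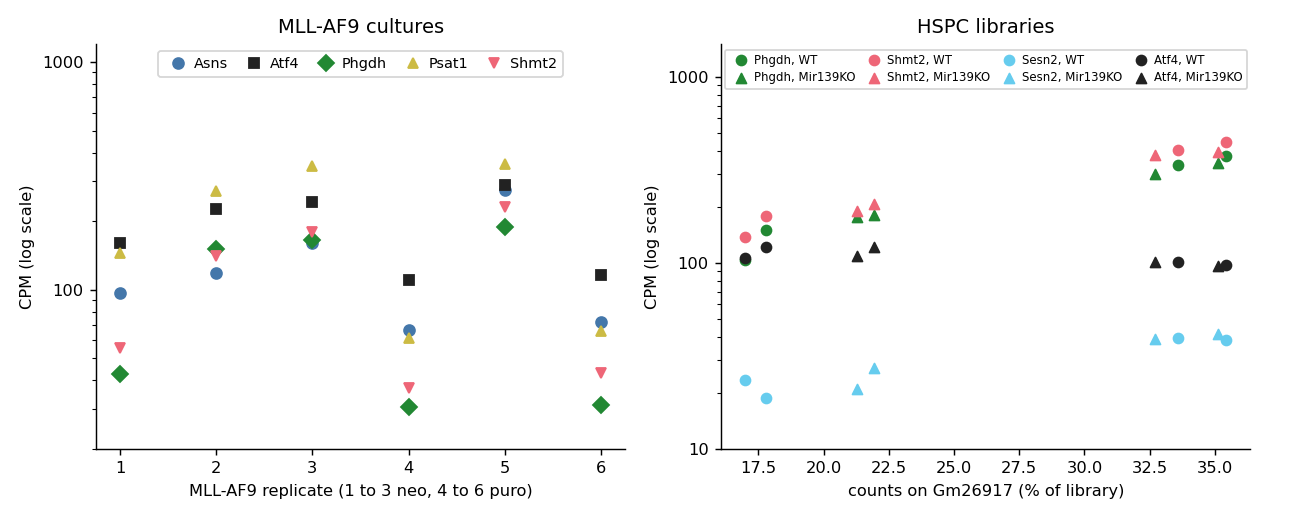
Left, the level of Atf4, Asns, Psat1, Phgdh and Shmt2 in the 6 MLL-AF9 cultures; right, the level of Phgdh, Shmt2, Sesn2 and Atf4 in the 8 HSPC libraries against the percent of counts on Gm26917 (circles WT, triangles Mir139KO). All axes of level are CPM on a log scale; cultures 2, 3 and 5 are high and 4 and 6 low for the 5 genes on the left, and the 2 share classes separate on the right.

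Within the MLL-AF9 cultures the 2 vectors did not separate most of these genes. None of the 10 was called between puro and neo cultures, where 0.873% of all genes were, and 1 of 10 had an unadjusted p under 0.05 against 13.7% of all genes. Groups did not overlap for 2 of the 10, against 19.9% of all genes. These were Slc7a11, lower with puro by 1.68 on the log2 scale (SE 0.444, adjusted p = 0.158), and Chac1, higher by 0.87 (SE 0.469, adjusted p = 0.501). The Slc7a11 means were 405 ± 190 CPM with neo and 128 ± 66.1 CPM with puro (SD, n = 3). DESeq2 gave Slc7a11 an adjusted p of 0.0096. Without puro replicate 5 edgeR gave 0.0401 for Slc7a11 (-2.14) and 0.0473 for Psat1 (-1.97). The puro group was then replicates 4 and 6 alone, which were nearly alike and may not be separate cultures. Without replicate 4 or 6 the adjusted p by the same test was 0.49 and 0.486 for Slc7a11 and 0.994 and 0.992 for Psat1.

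The larger spread lay between cultures of the same vector. Phgdh, Shmt2 and Psat1 in puro cultures had coefficients of variation of 110.0, 106.0 and 105.0%, because puro replicate 5 was several times above replicates 4 and 6. Across the 6 cultures Asns ran beside Atf4 (Pearson r = 0.943 of log2 CPM), Shmt2 (0.940), Psat1 (0.901) and Phgdh (0.893), while its r was 0.454 with Slc7a11, -0.051 with Ddit3 and -0.093 with Sesn2. These are descriptions over 6 libraries, of which 2 are nearly alike. The 5 genes most like Asns over the cultures, of 8543 whose log2 CPM averaged 3 or more, were Aldh18a1 (0.997), Rmnd5b (0.995), Atf6 (0.993), Zfp131 (0.992) and Strbp (0.988). Aldh18a1 catalyzes the entry step of proline synthesis from glutamate and Atf6 is a sensor of the unfolded protein response. Over all 14 libraries the genes most like Asns were Rptor (0.923), Smyd2, Txnrd3, Got1 and Xpo6 (0.872), and those most like Atf4 were Uqcc1 (0.970), Pkp4, Taf4b, Neil3 and Hic2 (0.954).

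Other genes of the pathway were read from lists, which were chosen with earlier results of these data known. Each list is described by the number called in MLL-AF9 cells against WT HSPCs and by its median log2 difference. Over all genes 62.2% were called and the median was 0.14. Of the 4 eIF2 kinases, Eif2ak4 (GCN2, the amino acid sensor) rose by 1.85 and Eif2ak2 (PKR) by 2.57, Eif2ak1 (HRI) fell by 1.20, and Eif2ak3 (PERK) was at 0.07 and not called. Of 10 genes for these kinases, phosphatase subunits, their regulators and Eif2s1, the eIF2 alpha subunit on which they act (0.89, not called), 4 rose and 2 fell (median 0.48), with Nck1 and Impact, an inhibitor of GCN2, 2.86 and 2.73 higher while Gcn1l1, the activator of GCN2, fell by 1.84. A list of 7 further tested initiation factor genes had no rise and 4 falls (median -1.09). All 4 falls were among the 5 subunits of eIF2B, the exchange factor of eIF2 (median -1.40), Eif2b4 by 2.27 and Eif2b5 by 1.40 first, while Eif2s3x, the eIF2 gamma subunit, was at 0.40 and Eif2a, which encodes the separate factor eIF2A, at 1.10 (adjusted p = 0.0582). Levels of list genes also differed with the Gm26917 share. Eif2b5 was at 67.2 and 71.3 CPM in the low-share and 159 and 157 CPM in the high-share WT libraries. In MLL-AF9 cells Eif2b5 was at 22.8 to 70.3 CPM. Eif2b4 was at 37.9 and 38.6 against 88.3 and 93.6 CPM, and at 9.65 to 17.4 CPM in MLL-AF9 cells. Of 8 bZIP partners and regulators of ATF4, 6 rose and none fell (median 1.15), led by Atf3 (3.37), Nupr1 (2.01), Atf2 (1.61) and Atf5 (1.23).

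**Figure D4:**
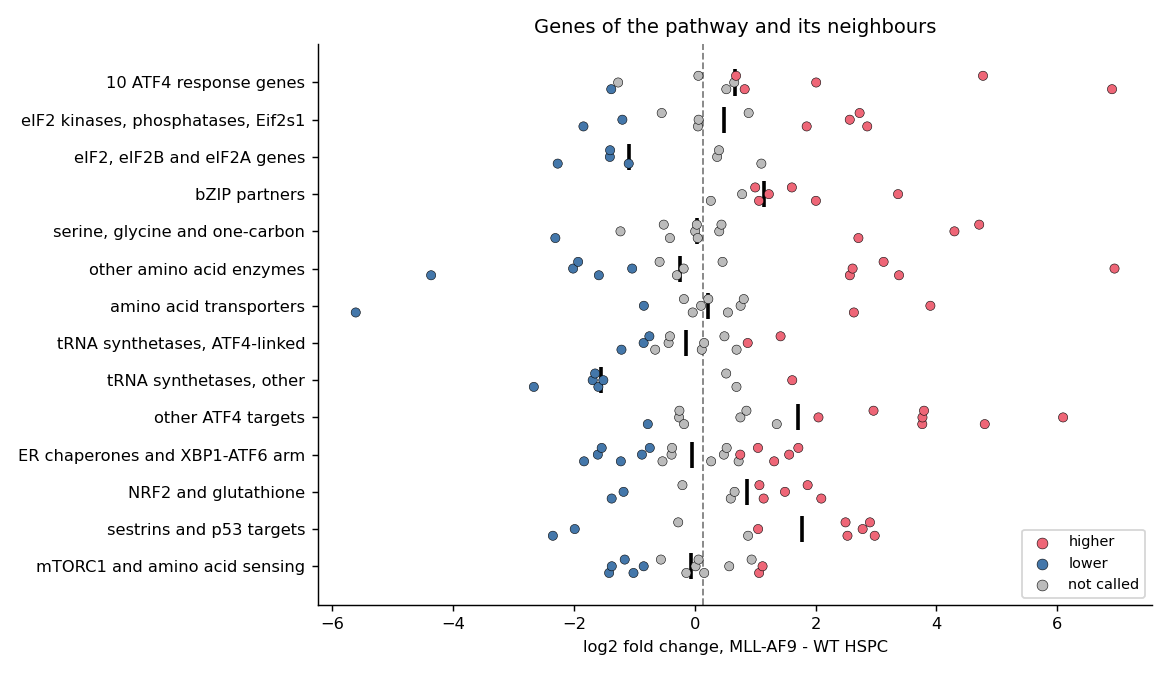
Log2 fold change of MLL-AF9 cells over WT HSPCs for each tested gene of the lists, colored by its call; black bars are list medians and the dashed line is the median of all genes (0.14). The bZIP partners, other ATF4 targets and sestrins with p53 targets have medians of 1.15, 1.70 and 1.77, while the list of eIF2, eIF2B and eIF2A genes and the other tRNA synthetases lie at -1.09 and -1.55. The lists were chosen with earlier results of these data known.

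Amino acid metabolism beyond the 10 genes showed a few large rises and no common direction. Of 12 further serine, glycine and one-carbon genes 3 rose, all mitochondrial (Gldc by 4.71, Aldh1l2 by 4.30 and Mthfd2l by 2.71), and 1 fell, the cytosolic Mthfd1 by 2.31 (median 0.04). In WT libraries Gldc was near the floor, at 0.0668 to 0.223 CPM, so the size of its rise rests on few counts. Of 14 other amino acid enzymes 5 rose and 5 fell (median -0.24). Cth, which makes cysteine from cystathionine, rose by 6.95, Bcat1 by 3.38 and Gpt2 by 3.13, and Ass1, which works in arginine synthesis, fell by 4.36. In WT libraries Cth was at only 0.134 to 0.3 CPM, so the size of its rise also rests on few counts. The rise of Bcat1 rested on puro replicate 5, at 76.0 CPM where the other 5 cultures were at 1.56 to 4.92 and WT libraries at 1.01 to 1.61 CPM. Without that culture it was at 1.00 and not called, and it was not called without any 1 of the 4 WT replicates. Of 11 tested amino acid transporters 2 rose and 2 fell (median 0.23), Slc7a3 by 3.90 and Slc36a4 by 2.64 upward and Slc43a1 by 5.61 and Slc36a1 by 0.84 downward. Slc7a3 too was near the floor in WT libraries, at 0.0207 to 0.138 CPM. The 12 tRNA synthetases linked to ATF4 had 2 rises (Eprs by 1.42, Lars by 0.88) and 3 falls, Mars by 1.21 and Sars by 0.84 among them (median -0.15). These counts were unsteady, with 0 rises and 1 fall without WT replicate 4, 1 of each without WT replicate 3, 1 rise without MLL-AF9 replicate 3 or 5, and at most 3 of either with any other library left out. The 8 other synthetases had 1 rise (Dars by 1.62) and 5 falls, led by Vars with 2.66 (median -1.55). Sars was at 108 and 112 CPM in the low-share and 242 and 235 CPM in the high-share WT libraries. In MLL-AF9 cells Sars was at 85.3 to 124 CPM. Dars went the other way with the share, at 77.1 and 103 against 15.4 and 28.3 CPM. The element core was found in 5 of the 8 ATF4-linked synthetases with a promoter in the table, Aars, Gars, Iars, Tars and Yars, and in none of 5 other synthetases. None of these 5 was called in MLL-AF9 cells against WT. The core was also in 3 of 8 bZIP partners, 2 of 10 other amino acid enzymes and 1 of 9 transporters. It was in 2 of 15 other ATF4 targets and in 0 of 9 further serine, glycine and one-carbon genes. Over all genes it was in 4.51%.

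Of 14 other tested targets of ATF4, 7 rose and 1 fell (median 1.70). Stc2, a secreted glycoprotein of the stress response, rose by 6.10, the death gene Pmaip1 by 4.80, the stress hormone Gdf15 by 3.80 and Vegfa by 3.77. Gdf15 was uneven, at 0.781 to 12.4 CPM in MLL-AF9 cultures, and overlapped the WT libraries at 0.207 to 0.818 CPM. Lists of neighboring pathways were counted in the same way. Among 10 NRF2 and glutathione genes, 5 rose, Srxn1 (2.10) and Gclm (1.87) first, and 2 fell, among them Keap1 by 1.37 (median 0.87). Among 10 sestrins and p53 targets, 6 rose, Cdkn1a (2.98), Trp53inp1 (2.90) and Ccng1 (2.78) first, and 2 fell, among them Trp53 by 2.35 (median 1.77). The sestrins of this list went in opposite directions, Sesn1 up by 1.05 and Sesn3 down by 1.98. Trp53 was at 179 and 199 CPM in the low-share and 490 and 456 CPM in the high-share WT libraries. In MLL-AF9 cells Trp53 was at 38.0 to 94.8 CPM. Ccng1 went the other way with the share, at 27.6 and 42.6 against 5.08 and 9.26 CPM. Pmaip1 is a p53 target too. The endoplasmic reticulum list had 5 rises and 6 falls in 18 genes (median -0.05), with Creld2 (-1.83), Atf6 (1.72), Calr (-1.60) and Dnajb9 (1.56) as the largest, and the mTORC1 list 2 rises and 5 falls in 14 genes (median -0.06). The mTORC1 rises numbered 0 without WT replicate 3 or 4 or MLL-AF9 replicate 2, 1 without MLL-AF9 replicate 3 or 5, and 3 without WT replicate 2. In Mir139KO against WT HSPCs no gene of any of these lists was called. Eif2s2, Slc7a5, Map1lc3b, Txnip and Wdr24 were listed at 0 in all 14 libraries and were not tested. These genes are widely expressed, so the zeros are not read as absent expression, and how they arose is not given in the sources used here.

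The HSPCs had been enriched with a commercial kit for mouse hematopoietic progenitors, of the kind that depletes cells bearing markers of mature lineages. Markers of other cells were counted in the same way, though Klf1, Epor, Gata1, Mpo and Elane among them are also expressed in progenitors. All 8 of 8 mast cell, basophil and eosinophil markers, 9 of 9 tested erythroid, 8 of 8 plasma cell, 7 of 7 tested B cell and 7 of 8 T and NK cell markers were lower in MLL-AF9 cells than in WT HSPCs, as were 5 of 8 monocyte and 4 of 10 neutrophil markers. Of the other monocyte markers Adgre1 rose by 1.47 (adjusted p = 0.00629). The summed erythroid markers went from 1253 to 1931 CPM in WT libraries to 2.32 to 15.8 CPM in MLL-AF9 libraries, and those of mast cells, basophils and eosinophils from 878 to 1998 CPM to 5.61 to 25.1 CPM. Plasma cell markers summed to 409 to 581 CPM in WT and 13.9 to 102 CPM in MLL-AF9 libraries, B cell markers to 35.0 to 68.3 and 1.77 to 6.49 CPM, and T and NK cell markers to 115 to 215 and 8.52 to 18.5 CPM. The myeloid markers stayed higher, those of monocytes at 923 to 1749 CPM in WT and 269 to 1023 CPM in MLL-AF9 libraries and those of neutrophils at 4930 to 15910 and 3016 to 4383 CPM. The erythroid marker Alas2 and the B cell marker Ms4a1 were listed at 0 in all libraries. These markers and the 10 genes were compared between the same groups. The part of the markers in the levels of Phgdh and Shmt2, or of any other gene that fell, was not tested.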

How the data were processed

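Total RNA was sequenced after ribosomal depletion. The deposited values are raw counts, which per the labels and the methods of the study the authors made with STAR 2.5.3e on GRCm38 and featureCounts 1.6.0; strand setting and treatment of shared reads are not given in the sources used here. Both deposited count tables held equal values in all 735700 cells, and 10 columns of another series were not used. Genes were placed with GENCODE M21 (52403 of 52550).

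Groups and vectors came from sample titles and descriptions. Each comparison used its 2 groups in edgeR 4.0.16 (R 4.3.3, limma 3.58.1) with TMM factors, robust quasi-likelihood F tests and genes with at least 10 counts in as many samples as the smaller group. A gene was called where its p, adjusted by Benjamini-Hochberg over all genes tested, was under 0.05. CPM used 1 scale for 14 libraries, log2 CPM a prior count of 2. The study's own test, DESeq2 (1.42.0 here), was an alternative, beside other scalings, filters, limma-voom, a replicate block, a GC correction (spline, 5 degrees of freedom), subsets and left-out replicates. The steps were tested on simulated data with few changed genes and no shift in the Gm26917 share, unlike the comparisons of MLL-AF9 cells with HSPCs.

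The 10 genes and all lists were chosen with earlier results of these data known. All 10 were named throughout, and from each list up to 4 called genes with the largest differences from WT HSPCs, and all 4 eIF2 kinases. Hoxa9, Meis1, Kit, Gata2, Gcn1l1, Trp53, Sesn1, Sesn3, Eif2s1, Eif2s3x, Eif2a and Adgre1 lie outside this rule and were named with their values seen. The same holds for the progenitor genes among the markers and the genes listed at 0. Floors of 3 counts cover counting error only.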

Additional observations from a re-analysis of the deposited data

Results flagged for a closer look

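In 30 sets of values, each a gene in a group of 4 or 6 libraries, 2 held a library farther from the rest than a 95% limit for a single outlying value allows. Chance gives about 1 in 20. Psat1 in Mir139KO HSPC replicate 1 was at 100.9 CPM, where the other 3 libraries were at 136.8 to 141 CPM. Chac1 in MLL-AF9 replicate 2 was at 2.87 CPM, where the other 5 cultures were at 8.38 to 14.1 CPM.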

How the results depend on the processing

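Against WT HSPCs, Trib3, Chac1 and Slc7a11 were called in all 29 alternatives, Atf4 and Shmt2 in 15, Sesn2 in 10, Phgdh in 4, Psat1 in 1, and Ddit3 and Asns in none. The number of the 10 genes called was 3 at an adjusted p under 0.01, 3 with the puro cultures only, and 4 to 5 with a replicate left out. Against Mir139KO HSPCs it was 2 at an adjusted p under 0.01, 4 with the low-share and 3 with the high-share HSPC libraries, and 3 to 7 with a replicate left out. Between puro and neo it was 1 with DESeq2 and 0 to 2 with a replicate left out, and over all genes the count of 144 became 1326 with DESeq2, 221 with no filter, 692 with all 14 samples in a single fit, 13 at an adjusted p under 0.01, 5 with replicates 4 and 6 summed and 0 to 990 with a replicate left out. Between Mir139KO and WT HSPCs 1 gene was called within the low-share libraries (Ighv7-1) and 1 within the high-share ones (Ighv3-1), named with their values seen. No called gene of the 10 changed sign. Genes not called changed sign in 11 of 116 cases against WT, 5 of 87 against Mir139KO, 50 of 247 between the genotypes and 15 of 210 between the vectors. The cause of these changes was not tested.

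Same-numbered samples did not deviate together throughout, with correlations of -0.055 to 0.093 between MLL-AF9 and WT and 0.019 to 0.188 between MLL-AF9 and Mir139KO. Between the vectors they ran from -0.315 to 0.447, with 2 of 3 pairs over 0.1. Between the genotypes numbers 2 and 4, each of 1 Gm26917 share class, were at 0.642 and 0.431. Numbers 1 and 3, whose samples differ in that class, were at -0.561 and -0.579. The numbers were therefore not taken to pair the samples. With a replicate block the calls went from 10630 to 9300 against WT, from 11741 to 11455 against Mir139KO, from 0 to 0 between the genotypes and from 144 to 214 between the vectors, and to 261 with the block and the GC correction. Of the 10 genes, with the block, Atf4 (adjusted p = 0.132) and Sesn2 (adjusted p = 0.143) were not called against WT and Phgdh was (-1.45, adjusted p = 0.0334). The block called 1 between the vectors, with or without the GC correction, Slc7a11 (adjusted p = 0.024). At these depths the spread between libraries, not counting error, limits most of the 10 genes. Trib3, Chac1 and Slc7a11 in HSPCs rest on as few as 21, 59 and 26 counts in a library, so counting error adds to their spread. Their coefficients of variation in WT HSPCs were 26.2, 41.3 and 98.9%.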
